A study of Homo sapiens with 6 samples.

Results

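The zinc finger cluster described here is made of 37 genes of the ZNF family that lie in bands q13.41 and q13.42 of human chromosome 19, out of 56794 genes in the authors' deposited comparison of CASP8AP2 mutant with parental HEK293 cells. The genes were chosen by position, with earlier results of the same comparison known, so their levels are given as a description and no test is drawn from them. From the start of ZNF175 to the end of ZNF331 they span chr19:51571298-53580269 on hg38, 2009 kb by the GENCODE release 29 annotation, and they are represented by 347 of the 203376 transcripts listed. HEK293 is a human embryonic kidney line used for recombinant protein production, and every library came from cells that carry a luciferase reporter. The 3 CASP8AP2 mutant libraries came from cells in which that gene was targeted with CRISPR, and the 3 parental libraries from the line without the deletion. No drug treatment or time course was labelled. The labels do not say how many mutant clones were used or whether libraries of a group came from separate cultures.

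The values deposited were group means of a length-scaled abundance, with no values of single libraries, so levels are given without an SD. A gene level below is the sum of its transcripts' group means, each with the 1 that the authors added taken off, and because the scale is per length, levels of different genes can be compared. The mutant libraries were estimated to hold 57500000, 15000000 and 13300000 reads on transcripts, rounded, and the parental libraries 15300000, 11600000 and 9190000. A single read on a transcript of 2000 bases then stands for a level between 0.00704 and 0.0304 in a mutant library. In a parental library it stands for between 0.0265 and 0.0441. A group mean moves by that value divided by 3, which sets the smallest level that can be seen. CASP8AP2 RNA itself had a level of 15.7 in mutant and 15.9 in parental cells, so the RNA level by itself gives no check of the label, and mutant here means the libraries labelled so. Of 6 genes listed for HEK293 cells, 5 had a level of at least 1 in both groups. Of 9 genes listed for lymphocytes, hepatocytes, fibroblasts and endothelium, LUM alone did so, and the 9 summed to 1.63 in mutant and 2.02 in parental cells. The neurofilament gene NEFM, from the HEK293 list, was at 0.0690 in mutant and 8.63 in parental cells, while NEFL was at 434 and PAX2 at 3.08 in mutant cells against 35.7 and 1.80 in parental cells. Whether the 2 lines differ in more than the edited gene was not tested.

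Genes of this kind encode proteins with long arrays of C2H2 zinc fingers, small folds held by zinc that read DNA in tandem. Many also carry a KRAB domain at the amino end, which recruits the corepressor TRIM28 and through it the histone H3 lysine 9 methyltransferase SETDB1, heterochromatin protein 1 and DNA methylation. Known targets of the family are largely transposable elements such as endogenous retroviruses and LINE-1. Much of the family grew by tandem duplication in primates, which left dense clusters of similar genes on chromosome 19, whose bodies are themselves bound by heterochromatin proteins in many human cell types.

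Most of the cluster was lower in CASP8AP2 mutant cells. Summed over the 37 genes, the level was 23.2 in mutant and 83.4 in parental cells, so that 27.9% of the parental level was present. Of the 37 genes 34 were lower in mutant cells, ZNF534 was higher, and ZNF415 and ZNF347 were listed at 0 in both groups. These 37 were counted without a limit on level. Of the 14856 genes with a level of at least 1 in either group, 7514 were lower and 7342 higher in mutant cells. The 21 members that passed that limit were all lower, and a member could pass through its parental level alone. In parental cells 29 members had a level of at least 0.25, and 16 of these 29 had a mutant level under 10% of their parental level, against a background of 1.17% of the 18169 genes with such a parental level. Members entered this count through their parental level, so nothing is read from it beyond the levels themselves. With a parental level of at least 1 required, 8 of 21 members kept under 10%, and the share over all genes at that level is not given. A further 6 members kept between 10% and 50%, and 7 kept over 50%. The members closest to the 10% limit were ZNF836, which kept 8.76%, and ZNF841, which kept 14.9%. The remaining 8 members had a parental level under 0.25, and 6 of those were barely detected in either group.

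**Figure D1:**
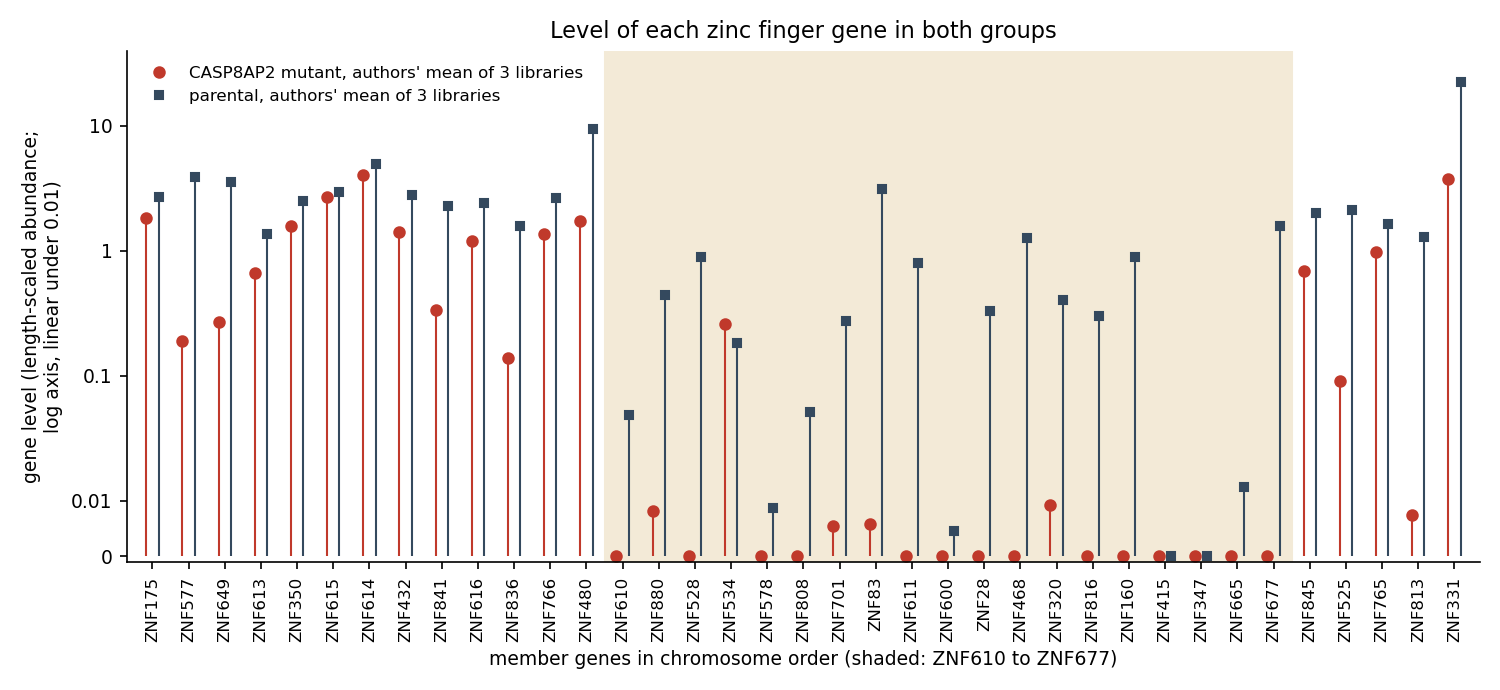
Gene level in CASP8AP2 mutant and parental cells for the 37 members in chromosome order, on a scale that is logarithmic at higher levels and linear near 0 so that genes listed at 0 can be drawn. Each point is a deposited group mean over 3 libraries, summed over transcripts and drawn without error bars, and from ZNF610 to ZNF677 the mutant points lie at or near 0 with ZNF534 as the exception.

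The difference was not even along the chromosome. In bulk RNA, fewer cells with a gene on and less RNA per cell cannot be told apart. After the values had been seen, the members were parted into 3 stretches, the left from ZNF175 to ZNF480, the middle from ZNF610 to ZNF677, and the right from ZNF845 to ZNF331. The 19 genes of the middle stretch, over 919 kb at chr19:52336245-53254898, summed to 0.289 in mutant and 10.6 in parental cells, 2.72% of the parental level. The 13 genes of the left stretch, over 755 kb at chr19:51571298-52325922, summed to 17.4 in mutant and 43.1 in parental cells, which is 40.4%. The 5 genes of the right stretch, over 247 kb at chr19:53333746-53580269, summed to 5.53 in mutant and 29.6 in parental cells, which is 18.7%. All 11 middle genes with a parental level of at least 0.25 kept under 10% of it. The same held for 3 of 13 such genes on the left and 2 of 5 on the right. Because the borders were placed with these levels known, the contrast between stretches is a description only. No gene of the left or right stretch was listed at 0 in either group.

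**Figure D2:**
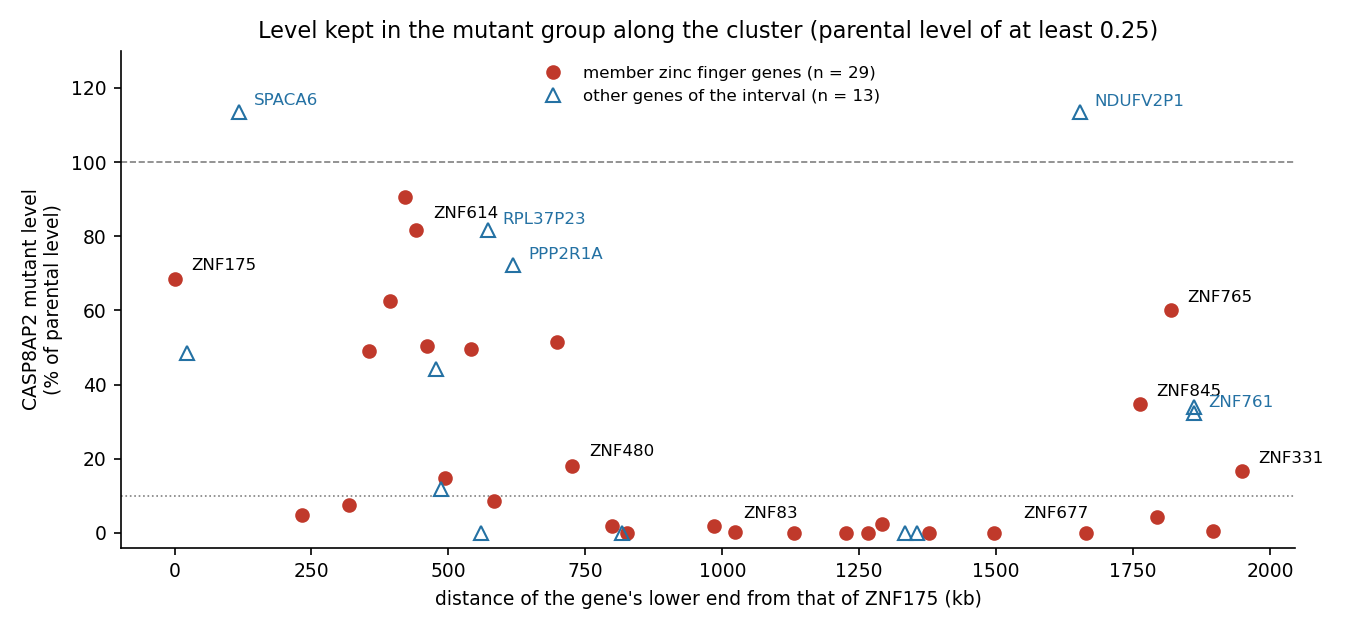
Mutant level as a percentage of the parental level against distance from the first member's start in kb, for the members with a parental level of at least 0.25. Triangles are the 13 other genes of the interval with such a level. Member points of the middle stretch lie at 2.29% or less, while member points of the left and right stretches range between 0.569% and 90.6%. The other genes range from 0% for ZNF528-AS1 to 114% for SPACA6, with NDUFV2P1, in the middle stretch, at 113%.

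Some of the members share similar promoters and yet had unlike levels. For 31 of 37 members RefSeq on GRCh38.p14 gave a promoter window, from 250 bases before to 50 bases after the gene start. The windows of ZNF701, ZNF83 and ZNF611 in the middle stretch and of ZNF845 and ZNF765 in the right stretch were 78.0% to 86.0% identical over their 10 pairs, where the median over 465 pairs of members was 46.6%. The closest pair of all was ZNF701 and ZNF845, at 86.0%. In mutant cells the 3 middle genes kept 1.97%, 0.186% and, for ZNF611, a level listed at 0, whereas ZNF845 kept 34.7% and ZNF765 kept 60.2%. The 5 windows are shown because their letters are so alike while the levels differ, so they were picked with the levels known. ZNF614, one of the best kept genes, is shown for contrast at 44.5% to 48.3% identity with them. Windows not shown were nearly as alike. That of ZNF468, a middle gene listed at 0 in mutant cells, was 80.7% identical with that of ZNF701. On the right, the ZNF525 window was 78.3% identical with that of ZNF765, and the ZNF813 window 76.7% with that of ZNF845. ZNF525 kept 4.25% and ZNF813 kept 0.569% of the parental level. The share of the parental level that starts within 300 bases of the window's start site, by the GENCODE transcript starts, was 40.4% for ZNF701, 58.2% for ZNF83, 84.7% for ZNF611, 100% for ZNF845, 96.7% for ZNF765 and 100% for ZNF614. Each window is written 5′ to 3′ on the gene's own strand, with CG dinucleotides in capitals. The windows are chr19:52570037-52570336 on the plus strand for ZNF701, chr19:52638306-52638605 on the minus strand for ZNF83, and chr19:52734995-52735294 on the minus strand for ZNF611. They are chr19:53333499-53333798 on the plus strand for ZNF845, chr19:53394899-53395198 on the plus strand for ZNF765, and chr19:52028330-52028629 on the minus strand for ZNF614.
ZNF701: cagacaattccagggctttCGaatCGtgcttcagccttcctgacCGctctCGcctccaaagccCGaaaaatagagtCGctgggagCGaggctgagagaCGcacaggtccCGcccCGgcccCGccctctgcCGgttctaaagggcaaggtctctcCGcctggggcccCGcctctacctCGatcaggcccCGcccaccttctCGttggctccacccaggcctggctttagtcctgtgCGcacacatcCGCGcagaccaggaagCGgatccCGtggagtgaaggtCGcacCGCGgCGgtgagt
ZNF83: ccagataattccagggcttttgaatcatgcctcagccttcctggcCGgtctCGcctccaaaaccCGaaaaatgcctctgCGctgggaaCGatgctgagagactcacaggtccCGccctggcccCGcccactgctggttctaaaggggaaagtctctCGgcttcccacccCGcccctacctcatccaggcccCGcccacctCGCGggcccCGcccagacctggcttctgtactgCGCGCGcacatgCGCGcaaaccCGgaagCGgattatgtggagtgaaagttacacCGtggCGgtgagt
ZNF611: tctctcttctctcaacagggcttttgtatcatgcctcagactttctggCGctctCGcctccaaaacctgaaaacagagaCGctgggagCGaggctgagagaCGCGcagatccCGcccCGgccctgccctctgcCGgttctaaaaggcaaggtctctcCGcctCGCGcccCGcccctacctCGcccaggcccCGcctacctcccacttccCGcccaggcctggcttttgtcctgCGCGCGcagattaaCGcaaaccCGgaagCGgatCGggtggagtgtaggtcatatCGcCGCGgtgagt
ZNF845: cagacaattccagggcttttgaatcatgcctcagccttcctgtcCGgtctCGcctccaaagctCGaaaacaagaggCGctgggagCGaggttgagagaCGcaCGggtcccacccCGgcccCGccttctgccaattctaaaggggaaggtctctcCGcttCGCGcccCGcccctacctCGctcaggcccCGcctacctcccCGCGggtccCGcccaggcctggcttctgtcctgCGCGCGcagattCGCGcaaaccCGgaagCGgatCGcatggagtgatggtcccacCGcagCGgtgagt
ZNF765: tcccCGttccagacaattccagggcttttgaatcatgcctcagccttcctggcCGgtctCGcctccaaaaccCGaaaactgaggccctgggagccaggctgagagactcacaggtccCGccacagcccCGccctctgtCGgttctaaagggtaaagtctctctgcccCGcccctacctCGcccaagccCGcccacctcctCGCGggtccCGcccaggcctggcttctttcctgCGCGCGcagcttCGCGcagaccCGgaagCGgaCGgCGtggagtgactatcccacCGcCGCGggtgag
ZNF614: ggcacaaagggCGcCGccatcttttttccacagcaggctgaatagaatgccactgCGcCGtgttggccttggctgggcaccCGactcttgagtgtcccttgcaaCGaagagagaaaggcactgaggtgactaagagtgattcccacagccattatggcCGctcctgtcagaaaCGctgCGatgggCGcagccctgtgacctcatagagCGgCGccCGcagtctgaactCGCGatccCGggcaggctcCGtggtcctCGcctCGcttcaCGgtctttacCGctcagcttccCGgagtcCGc
The 5 alike windows hold like numbers of CG dinucleotides, 22 in ZNF83, 25 in ZNF765, 26 each in ZNF701 and ZNF611, and 28 in ZNF845. ZNF614 has 23.

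In the middle stretch 14 of 19 genes were listed at 0 in mutant cells, against 2 of 19 in parental cells. Among the 14 were ZNF578, ZNF600, ZNF665, ZNF415 and ZNF347, each with 1 read or none in parental cells. The same counts over all genes are not given, and the stretch was drawn after the levels had been seen. The highest parental level there was that of ZNF83, which encodes an array of fingers in which no KRAB box was found, and it was at 0.00579 in mutant and 3.12 in parental cells, 0.186% of the parental level. ZNF677, a KRAB gene known to be silenced by promoter methylation in several human cancers, was listed at 0 in mutant cells and stood at 1.58 in parental cells. Most of that parental level, 1.02, was ZNF677-209, annotated as a retained intron and not as a coding transcript. ZNF468 was likewise listed at 0 in mutant cells, with 1.27 in parental cells. Of that parental level 0.532 was ZNF468-202, a transcript annotated at chr19:52876172-52890375, within the span of ZNF320. ZNF83, ZNF677 and ZNF468 are the 3 middle genes with a level of at least 1 in either group. ZNF468 reaches it only with ZNF468-202 counted. ZNF160, a KRAB gene reported to repress TLR4 in intestinal epithelial cells, was listed at 0 in mutant cells and at 0.892 in parental cells. ZNF528 was listed at 0 in mutant and 0.891 in parental cells. ZNF611, whose protein is known to bind SVA retrotransposons, was listed at 0 in mutant and 0.799 in parental cells. Among these 6 genes ZNF83 alone had any RNA in mutant cells.

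At lower parental levels the picture was the same. ZNF28 and ZNF816 were listed at 0 in mutant cells, with 0.333 and 0.300 in parental cells. ZNF880 was at 0.00806 in mutant and 0.447 in parental cells, 1.80% of the parental level. ZNF320 was at 0.00923 in mutant and 0.403 in parental cells, which is 2.29%. ZNF701 was at 0.00544 in mutant and 0.275 in parental cells, which is 1.97%. Each of the 4 small mutant values in the stretch, those of ZNF83, ZNF701, ZNF320 and ZNF880, matched 1 read in 1 library within 0.1%, and for the first 3 genes it was the deepest mutant library.

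The remaining middle genes had parental levels under 0.25, too low for a share to be read. ZNF808, a KRAB gene needed for human pancreas development, was listed at 0 in mutant and 0.0514 in parental cells, and ZNF610 at 0 in mutant and 0.0486 in parental cells. ZNF578, ZNF600 and ZNF665 were listed at 0 in mutant cells, and their parental levels of 0.00874, 0.00461 and 0.0129 each matched 1 read of 1 parental library within 0.1%. ZNF415 and ZNF347 were listed at 0 throughout. ZNF534 was the exception in the stretch, at 0.261 in mutant and 0.184 in parental cells. Its most abundant transcript was at 0.244 in mutant and 0.153 in parental cells, and the authors' deposited table gives it p = 0.396.

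The reads behind these levels bear on how firmly a 0 can be read. At the parental levels, the 19 middle genes together would have given an estimated 3416 reads in the 3 mutant libraries, and between 14.3 and 61.9 reads were estimated to be there, the range covering which library held them. ZNF534 held most of these, between 12.7 and 55.1 reads, against 20.5 that its parental level would have given. ZNF83 would have given 924 reads and gave 1. The genes listed at 0 in mutant cells would have given 659 reads for ZNF468, 397 for ZNF677, 369 for ZNF160, 266 for ZNF611, 261 for ZNF528, 139 for ZNF28 and 79.7 for ZNF816. The 659 reads of ZNF468 include those of ZNF468-202, which lies within the span of ZNF320. ZNF578 and ZNF600 would have given 1.87 reads each, so a lower level of these genes was not detectable at this depth. These estimates cover counting only, and reads are not independent molecules.

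**Figure D3:**
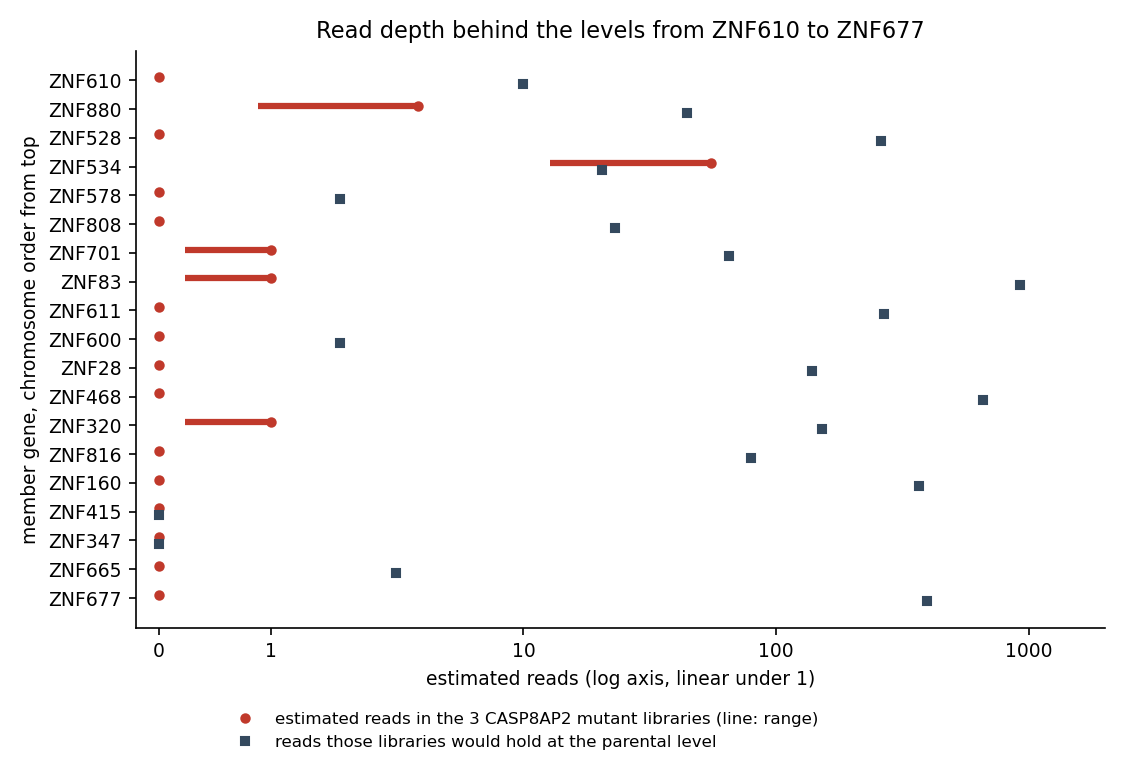
Reads in the 3 mutant libraries together for the genes of the middle stretch, on a scale that is linear near 0. For each gene the estimated range present in mutant cells is a line that ends in a point at its upper limit, beside a square for the number that the parental level would have given. Apart from ZNF415 and ZNF347, with 0 for both, ZNF534 alone has that number within its range.

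The left stretch held genes that kept under 10% and genes that kept most of their level side by side. ZNF577 was at 0.190 in mutant and 3.89 in parental cells, which is 4.87%, and its neighbour ZNF649, known as a repressor of serum response element and AP-1 reporters, was at 0.270 in mutant and 3.55 in parental cells, which is 7.61%. ZNF836 was at 0.139 in mutant and 1.59 in parental cells. Between these 3 genes lay the best kept of the cluster. ZNF615 was at 2.68 in mutant and 2.96 in parental cells, 90.6% of the parental level, and ZNF614 at 4.04 in mutant and 4.95 in parental cells, which is 81.6%. ZNF350, also called ZBRK1, a repressor of GADD45A that binds BRCA1, was at 1.57 in mutant and 2.51 in parental cells, which is 62.5%.

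The other left genes lay between these extremes. ZNF175, also called OTK18 and known to repress HIV-1 transcription in macrophages, was the outermost member and stood at 1.84 in mutant and 2.69 in parental cells, which is 68.6%. ZNF766 was at 1.36 in mutant and 2.65 in parental cells, ZNF432 at 1.40 in mutant and 2.79 in parental cells, ZNF616 at 1.20 in mutant and 2.42 in parental cells, and ZNF613 at 0.666 in mutant and 1.36 in parental cells, so that all 4 kept between 49.1% and 51.4%. ZNF841 was lower, at 0.339 in mutant and 2.27 in parental cells. ZNF480, the second most abundant member in parental cells and the last before the middle stretch, was at 1.72 in mutant and 9.53 in parental cells, which is 18.1%.

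On the right, ZNF331 had the highest parental level of the cluster. This KRAB gene, which is imprinted in some human tissues, was at 3.76 in mutant and 22.5 in parental cells, which is 16.7%. ZNF813 was at 0.00739 in mutant and 1.30 in parental cells, which is 0.569%, a value like those of the middle stretch, and ZNF525 was at 0.0910 in mutant and 2.14 in parental cells, which is 4.25%. ZNF845 kept 34.7%, with 0.692 in mutant and 2.00 in parental cells. ZNF765, which lies between ZNF525 and ZNF813, kept 60.2%, with 0.986 in mutant and 1.64 in parental cells. Among the members, a gene that kept under 10% thus lay on each side of ZNF765.

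Most transcripts of the members followed their genes, and none was called in the authors' deposited table. Of 347 transcripts 138 were listed at 0 everywhere, and of the other 209, 174 were lower and 35 higher in mutant cells. Among the 56 with a level of at least 0.25 in either group 54 were lower in mutant cells. A transcript could enter the 56 through its parental level alone. The same counts over all transcripts are not given, so nothing further is read from these counts. At an adjusted p of 0.05 the authors' deposited table calls 0 of the 209, against a background of 0.0221% of 140552 transcripts, and 34 passed an unadjusted p of 0.05, all of them lower in mutant cells and spread over 20 genes. The background at that limit was 2.48% lower and 3.3% higher. The smallest adjusted p of a member in the authors' deposited table was 0.0577, for ZNF611-202, which was listed at 0 in mutant and 0.190 in parental cells. These p-values measure the spread between libraries, which may be technical, and come from the contrast with which the members were chosen.

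ZNF331 shows that transcripts of 1 gene did not all keep the same share. ZNF331-203 was at 0.590 in mutant and 10.3 in parental cells, 5.72% of the parental level, and the authors' deposited table gives it p = 0.00396, adjusted p = 0.462. ZNF331-201 was at 1.64 in mutant and 8.26 in parental cells, which is 19.8%, and the authors' deposited table gives it p = 0.000561, adjusted p = 0.261. ZNF331-202 was at 0.421 in mutant and 0.784 in parental cells, which is 53.7%. ZNF331-216 was higher in mutant cells, at 0.354 against 0.159 in parental cells. How reads are divided among transcripts that overlap is an estimate, so the sum over the gene is the firmer value.

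The most abundant transcripts of the other leading members were lower in mutant cells with 1 exception, though several kept another share than their genes. ZNF480-206 was at 1.10 in mutant and 6.51 in parental cells, and ZNF649-201 at 0.0912 in mutant and 3.21 in parental cells. ZNF577-218 was at 0.0201 in mutant and 1.22 in parental cells, and ZNF83-203 was listed at 0 in mutant and 1.12 in parental cells. These shares were 2.84% for ZNF649-201 and 1.65% for ZNF577-218, against 7.61% and 4.87% for the sums over the genes. In the middle of the range, ZNF766-202 was at 0.412 in mutant and 1.21 in parental cells, ZNF616-204 at 1.11 in mutant and 2.33 in parental cells, ZNF432-202 at 1.13 in mutant and 2.01 in parental cells, ZNF350-201 at 1.19 in mutant and 1.83 in parental cells, and ZNF175-201 at 1.43 in mutant and 2.04 in parental cells. ZNF614-201 was at 3.86 in mutant and 4.76 in parental cells. ZNF615-204 alone of these 12 was higher, at 1.53 in mutant and 1.34 in parental cells, while its gene was lower, and the authors' deposited table gives the transcript p = 0.666.

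Set beside other genes, the cluster stood lower on the log2 scale. With 1 added to both levels and a level of at least 1 in either group required, 21 members were left, with a median log2 ratio of mutant over parental of -1.18 and quartiles of -1.53 and -0.50. A member could pass through its parental level alone, so this median is no support for a difference, and only 3 of the 19 middle genes are in it. With a mean of both groups of at least 1 required, 17 members were left and the median was -0.65. Of the 21 members 11 were lower by at least 2-fold and 0 were higher by as much, where the background over 14856 genes was 1.61% lower and 1.51% higher. The median over those 14856 genes was -0.01. The 159 other ZNF genes of chromosome 19 that passed the same filter had a median log2 ratio of -0.25, and 26 of them were lower by at least 2-fold. The 218 ZNF genes on other chromosomes had a median of 0.05, with 2 lower by at least 2-fold. Of genes with a parental level of at least 0.25, 28 of 179 other ZNF genes on chromosome 19 and 3 of 237 on other chromosomes kept under 10% of it. The difference between the cluster and these sets was not tested.

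**Figure D4:**
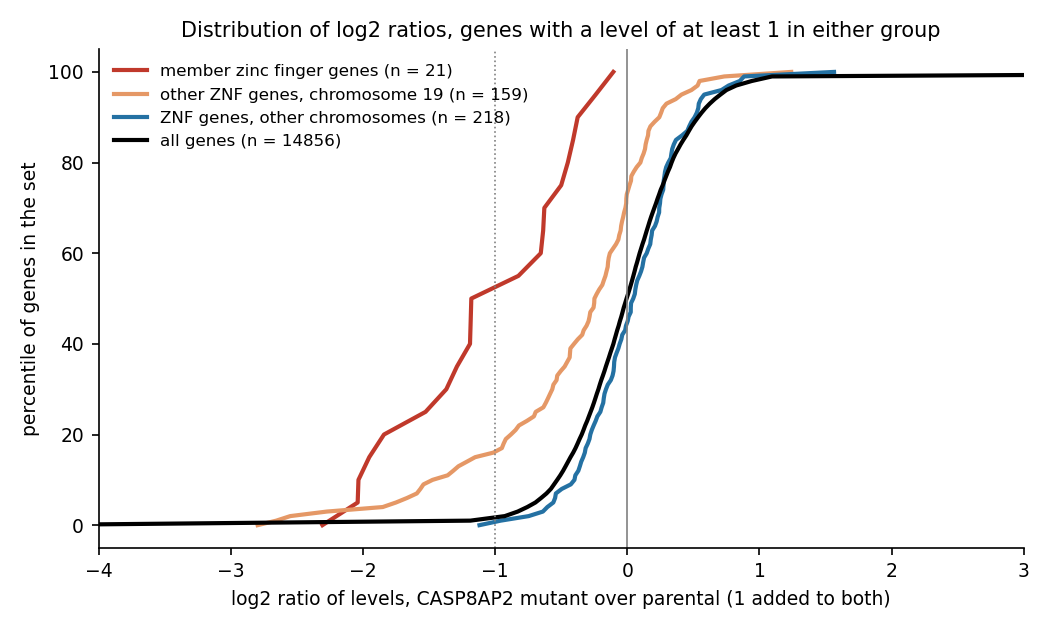
Distribution of the log2 ratio (mutant over parental, 1 added to each level) for members of the cluster, other ZNF genes of chromosome 19, ZNF genes of other chromosomes and all genes, each with a level of at least 1 in either group. The median is -1.18 for 21 members, -0.25 for 159, 0.05 for 218 and -0.01 for 14856 genes.

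The 4 most abundant ZNF genes elsewhere on chromosome 19 lay on both sides of their parental levels. ZNF146 was at 91.0 in mutant and 111 in parental cells, ZNF428 at 33.4 in mutant and 52.4 in parental cells, and ZNF580 at 35.8 in mutant and 33.6 in parental cells. ZNF581 was higher, at 62.1 in mutant and 25.7 in parental cells, a log2 ratio of 1.24.

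Genes of other kinds inside the interval were kept to differing degrees. The annotation places 81 other genes between the outermost members. PPP2R1A, the scaffold subunit of protein phosphatase 2A, which lies in the left stretch, was at 77.8 in mutant and 108 in parental cells, 72.3% of the parental level. SPACA6, needed for sperm and egg fusion, was at 4.13 in mutant and 3.64 in parental cells. Further along, ZNF761, a zinc finger gene of the right stretch that is not among the members, was at 1.38 in mutant and 4.28 in parental cells. TPM3P9 was at 0.804 in mutant and 2.36 in parental cells, and AC018755.3 at 0.970 in mutant and 2.00 in parental cells. RPL37P23 was at 45.6 in mutant and 55.8 in parental cells.

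In the middle stretch most of the other genes were listed at 0 in mutant cells, and many of these in parental cells as well. Of 29 such genes 26 were listed at 0 in mutant and 16 in parental cells. The genes at 0 in mutant cells alone were 10, with parental levels down to 0.0144, and none was at 0 in parental cells alone. Of the 36 other genes of the left stretch 18 were listed at 0 in each group, 5 in mutant cells alone and 5 in parental cells alone. The same counts over all genes are not given, so nothing further is read from them. All 6 with ZNF in their name were listed at 0 in mutant cells, and among them ZNF528-AS1 was at 0.775, ZNF888 at 0.512 and ZNF321P at 0.383 in parental cells. NDUFV2P1 was at 18.0 in mutant and 15.9 in parental cells, out of a sum over the 29 genes of 18.3 in mutant and 18.5 in parental cells, so the rest of the sum was smaller in mutant cells. NDUFV2P1 and RPL37P23 are processed pseudogenes, so their reads may belong to the genes they were copied from. Reads may also be shared between members, which resemble each other, and between ZNF528 and ZNF528-AS1, since the sources do not say whether strand was used.

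The genes with which KRAB zinc finger proteins act were within 2-fold of their parental levels, apart from UHRF1. TRIM28 was at 271 in mutant and 306 in parental cells, and SETDB1 at 21.1 in mutant and 21.3 in parental cells. CBX5, which encodes heterochromatin protein 1 alpha, was at 27.4 in mutant and 32.6 in parental cells. The chromatin remodeller ATRX was at 11.5 in mutant and 8.20 in parental cells, MORC2, which acts with the HUSH silencing complex, at 12.1 in mutant and 17.9 in parental cells, and the maintenance DNA methyltransferase DNMT1 at 85.9 in mutant and 101 in parental cells. Of 23 such genes 19 were lower and 4 higher in mutant cells, with a median log2 ratio of -0.08. The only one lower by at least 2-fold was UHRF1, which brings DNMT1 to newly copied DNA, at 25.2 in mutant and 54.8 in parental cells, a log2 ratio of -1.09. UHRF1 is named because it alone passed that fold.

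The encoded proteins are alike in make-up. Translated from the GENCODE release 29 coding sequences, all 37 members had at least 3 C2H2 matches, with a median of 13 and a range of 7 to 26, against 629 of 19644 protein-coding genes. ZNF845 had the most, 26, followed by ZNF836 with 24. A KRAB A-box pattern was found in 30 of 37 members, against 1.29% of all protein-coding genes and 62.8% of the 207 other ZNF genes of chromosome 19 with a coding sequence. Of those 207 genes 98.6% had at least 3 C2H2 matches, with a median of 12. Among the members that kept under 10% it was found in 14 of 16, and among those that kept over 50% in 3 of 7. The pattern is strict: ZNF350 and ZNF649, both known to carry a KRAB domain, did not match it. These counts are therefore lower bounds, and no difference between the classes is read from them. Over the 29 members with a parental level of at least 0.25, Spearman's rho between the number of fingers and the share kept was -0.10. Between the parental level and the share kept it was 0.64. These points share the same 6 libraries and rho is given as a description only.

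Promoters of the members were rich in CG dinucleotides. The median number of CG dinucleotides in the 31 windows was 23, with a range of 6 to 34, against 14 over all 35116 windows, and the median GC content was 61.7% against 58.7%. GGGCGG, the GC box, which contains a CG, was present on either strand in 24 of 31 windows, 77.4%, against 45.0% of all windows. CCGGAAG, an ETS-type sequence that also contains a CG, was present in 19 of 31, 61.3%, against 10.3%. CCAAT was present in 10 of 31, 32.3%, against 34.6%. TCTCGCGA was found in 0 of 31 and in 1.15% of all windows, and the NRF1 motif in 2 of 31, 6.45%, against 5.78%.

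The GC box was spread unevenly over the classes, while the 5 alike windows printed above all hold it. It was present in all 14 windows of members that kept under 10% of their parental level, with a median of 3.5 copies, in 2 of 5 windows of those that kept between 10% and 50%, and in 3 of 7 of those that kept over 50%. The median GC content of these classes was 64.3%, 58.0% and 60.0% in the same order. The GC box was also present in the windows outside these classes, those of ZNF534, ZNF578, ZNF808, ZNF415 and ZNF347. Of these genes ZNF534 was higher in mutant cells and ZNF415 and ZNF347 were listed at 0 in both groups. Every window of the middle stretch thus held it, so position and the share kept are not separated here. Over 26 members Spearman's rho between the number of CG dinucleotides and the share kept was -0.48, a description of points that share libraries and base composition. The classes were set after the levels had been seen, a match is not a binding site, and its part in the levels was not tested.

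**Figure D5:**
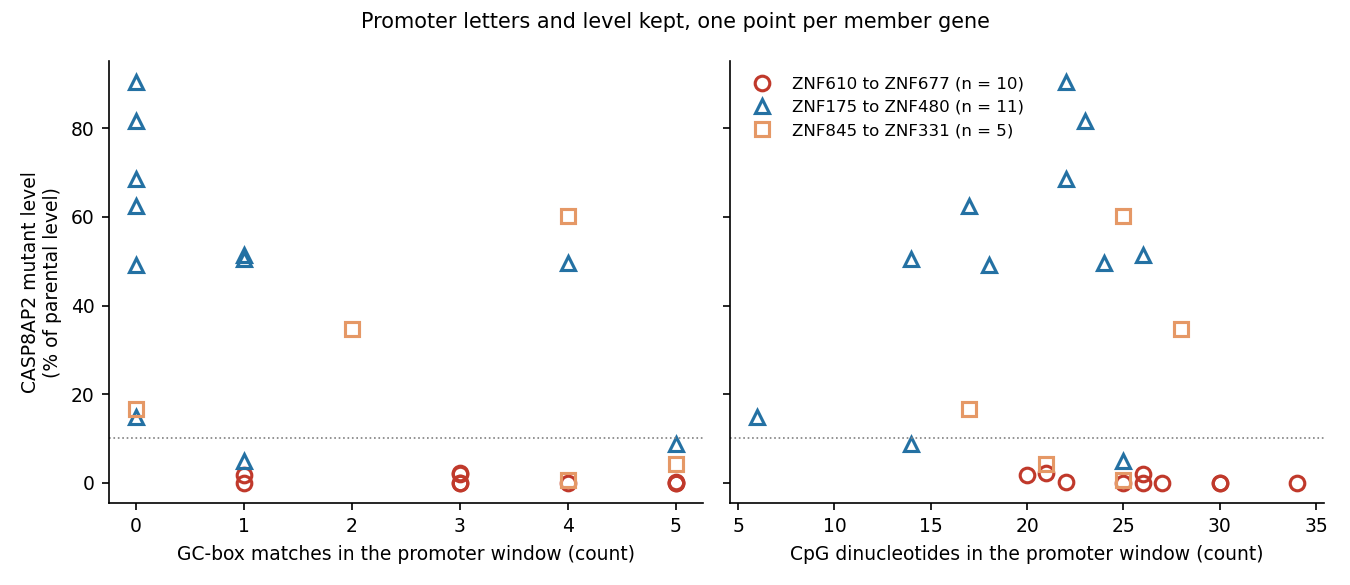
Number of GC-box matches and of CpG dinucleotides in the RefSeq promoter window against the mutant level as a percentage of the parental level, 1 point per member with a parental level of at least 0.25. All 14 members under 10% that have a window hold at least 1 GC-box match, while members over 50% have between 0 and 4.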

How the data were processed

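RNA was sequenced from 3 CASP8AP2 mutant and 3 parental HEK293 libraries. Per the labels' protocols, total RNA was taken with a column kit from cells grown with 10% serum, and libraries were made with random primers. Per the submitters' processing notes, bcl2fastq, STAR and Partek were used with hg38; their versions and the use of strand are not given in the sources. The authors deposited 1 table of 203376 transcripts with group means and no library values. Per the file headers the deposited group mean is a least-squares mean, a score, and the values show it to be a length-scaled abundance plus 1. The deposited total counts are a signal and not whole reads. The deposited p-values, adjusted p-values, ratio and fold change, held as scores, are the authors' own, and 62824 transcripts without them are listed at 0.

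From these, 1 was taken off, transcripts were summed by gene, and log2 ratios were taken after adding 1. Genes with a level of at least 1 in either group entered log2 summaries, and genes with a parental level of at least 0.25 entered shares kept. What 1 read adds in a library was recovered from repeated steps of level times length and tested on simulated data. With group means alone the planned library-level fits could not be run, so calls are the authors' deposited adjusted p-value under 0.05. Positions and coding sequences came from GENCODE release 29, matched for 99.1% of transcripts; the plan named a protein table, and coding sequences were translated in its place. Promoter windows came from RefSeq on GRCh38.p14 and were aligned end to end with Biopython 1.88. Other steps used Python 3.11.15, pandas 2.3.3, numpy 2.4.6 and scipy 1.17.1, and plots matplotlib 3.10.9.

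The members and lists were chosen with earlier results of these data known, and the stretches, the 10% limit and the motif classes after the levels were seen. Every member is given. Transcripts named are the most abundant of the 12 members with the highest mean level. Some others, of ZNF331, ZNF611, ZNF534, ZNF468 and ZNF677, were picked after their values were seen. Neighbours named are the 8 with the highest mean level and those lower by at least 4-fold with a level of at least 1, of which there were none; ZNF888, ZNF321P and UHRF1 were picked after their values were seen. Other zinc finger genes named are the 4 most abundant on chromosome 19. A withheld result is not reported here.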

Additional observations from a re-analysis of the deposited data

How the results depend on the processing

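The deposited values are group means, so leaving out each library in turn and any normalization other than the authors' were not run. No paired analysis was possible because the table holds no values of single libraries. The median log2 ratio of the members, -1.18, was -2.40 with 0.1 added, -0.52 with no filter, -0.65 with a mean of at least 1, -0.88 for the most abundant transcript, -0.91 for protein-coding transcripts and -1.02 with the GC trend taken off. It stayed below 0 under these 6 alternatives. The number of members lower by at least 2-fold, 11, was 7 with a mean of at least 1 and 3 at a fold of 4, and lay between 8 and 12 under the other 5. Calls by the authors' deposited table, 0, were 1 at an adjusted p of 0.1 and 34 at an unadjusted p of 0.05. The number that kept under 10%, 16, was 8 with a parental level of at least 1, and between 14 and 19 under 4 alternatives, all chosen after the data were seen. With that level required 21 members were left. Those left out, ZNF880, ZNF528, ZNF701, ZNF611, ZNF28, ZNF320, ZNF816 and ZNF160, all kept under 10%. The count of 16 thus rests in part on members with a parental level under 1. The cause of the other moves was not tested.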

Other observations

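Low genes lay next to each other on chromosome 19. Among 13758 protein-coding genes with a level of at least 0.25 in either group, 132 had a mutant level under 10% of the parental level, and 55 of these were on chromosome 19. Of the ZNF genes in that list, 46 of 210 on chromosome 19 and 3 of 234 elsewhere were among the 132. The reverse, a parental level under 10% of the mutant level, was found for 24 genes.

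Taken in chromosome order, the 132 genes formed 6 runs of at least 3 neighbours, all 6 on chromosome 19, and the 24 genes formed 0. The longest runs held 10 genes each. The first ran from ZNF701 to ZNF677, with summed levels of 0.0205 in mutant and 9.48 in parental cells, and counts ZNF888 with 9 members of the cluster. The second, from ZNF708 to ZNF726 at chr19:21291160-23945159 in band p12, summed to 0.0913 in mutant and 19.2 in parental cells and holds ZNF91, known to repress SVA elements. No test was made of these runs.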
